A study of Mus musculus with 6 samples.

Results

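The loci of Mef2a, Mef2c and Mef2d, 3 genes that encode MEF2 transcription factors, were described by their H3K27ac peaks during differentiation of C2C12 cells. The members are the peaks of the 3 deposited lists that overlap by at least 1 bp a window set on the mm9 build of the mouse genome: chr7:74360000-74540000 for Mef2a, chr13:83600000-83830000 for Mef2c and chr3:87930000-87990000 for Mef2d. The windows held 118 of the 243962 peaks in the lists. By stage this was 17 of 57101 peaks in proliferation, 39 of 89717 at 36 h and 62 of 97144 at 72 h. The series concerns TAp63, a transcription factor of the p53 family, in the formation of muscle. C2C12 is a line of mouse myoblasts that fuse into myotubes when they differentiate. The samples were proliferating cells and cells after 36 h and 72 h of differentiation, each with 1 H3K27ac library and 1 input library, and all were C2C12 with no other agent or genotype in the labels. Each ChIP library was made from DNA of 4 ChIP assays pooled before library construction, so a stage has 1 value, with no replicate error and no test. Differences below are between these libraries, and all intervals cover counting error only.

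MEF2 proteins bind AT-rich sites in muscle promoters and enhancers and act together with the myogenic factors of the MyoD family, which bind E-boxes. Class IIa histone deacetylases bind MEF2 proteins and repress their targets. Acetylation of lysine 27 of histone H3 marks active promoters and enhancers, so it reports on the regulatory DNA around these genes and not on the amount of transcript or protein. Mef2c is known as the family member whose expression comes up late in myoblast differentiation, whereas Mef2a and Mef2d are already expressed in myoblasts.

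The start-site sequences of the 3 genes are shown because they are the regulatory DNA that can be read for each of them, from 250 bases before to 30 after the annotated start. They come from RefSeq on GRCm38.p6, a later build than mm9, so their positions cannot be set against the peaks. Mef2a (gene ID 17258) has 1 start in the table, at chr7:67372829-67373108 on the minus strand. Mef2c (gene ID 17260) has 3 on the plus strand, at chr13:83503784-83504063, chr13:83523406-83523685 and chr13:83573357-83573636. Mef2d (gene ID 17261) has 1 on the plus strand, at chr3:88142122-88142401. Capitals mark matches to the MEF2 site and to the E-box CANNTG, and all sequences run 5′ to 3′ on the strand of the gene.
Mef2a: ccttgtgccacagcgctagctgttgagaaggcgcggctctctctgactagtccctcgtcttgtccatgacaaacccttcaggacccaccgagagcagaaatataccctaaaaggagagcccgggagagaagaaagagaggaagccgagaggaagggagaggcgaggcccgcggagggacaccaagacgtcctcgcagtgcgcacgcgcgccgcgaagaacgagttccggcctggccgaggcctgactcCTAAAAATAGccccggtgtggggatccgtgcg
Mef2c start 1: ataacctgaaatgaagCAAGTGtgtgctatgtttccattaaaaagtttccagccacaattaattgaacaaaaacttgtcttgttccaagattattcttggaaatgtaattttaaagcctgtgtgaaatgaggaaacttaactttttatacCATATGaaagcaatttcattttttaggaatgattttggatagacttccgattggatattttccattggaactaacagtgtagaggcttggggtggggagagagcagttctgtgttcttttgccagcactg
Mef2c start 2: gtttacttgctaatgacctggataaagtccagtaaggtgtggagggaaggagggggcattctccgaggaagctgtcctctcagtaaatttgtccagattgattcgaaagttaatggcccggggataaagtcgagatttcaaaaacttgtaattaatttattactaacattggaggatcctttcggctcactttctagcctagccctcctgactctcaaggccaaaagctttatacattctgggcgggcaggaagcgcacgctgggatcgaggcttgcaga
Mef2c start 3: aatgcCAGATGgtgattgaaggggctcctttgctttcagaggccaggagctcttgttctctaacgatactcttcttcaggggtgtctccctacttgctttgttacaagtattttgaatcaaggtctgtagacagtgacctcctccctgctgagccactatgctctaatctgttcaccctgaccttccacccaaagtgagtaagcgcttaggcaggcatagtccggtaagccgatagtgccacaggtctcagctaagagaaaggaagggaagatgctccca
Mef2d: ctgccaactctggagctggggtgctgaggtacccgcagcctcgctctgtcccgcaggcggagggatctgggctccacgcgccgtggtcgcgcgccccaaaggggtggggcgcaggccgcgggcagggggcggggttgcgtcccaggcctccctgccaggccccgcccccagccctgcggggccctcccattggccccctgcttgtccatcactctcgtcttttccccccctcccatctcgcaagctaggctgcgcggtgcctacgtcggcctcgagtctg

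The Mef2a start holds 1 match to the MEF2 site itself, CTAAAAATAG at bases 249 to 258, which spans the annotated start and was found in 3.04% of 32541 start-site windows of the same length. Mef2c start 1 holds 2 E-boxes, CAAGTG and CATATG, and Mef2c start 3 holds 1, CAGATG. An E-box was found in 70.1% of all such windows, so its presence at 2 of the 3 Mef2c starts sets them apart little. A p53 family half-site, the kind of element p63 binds, was found in Mef2c start 1 and in 7.84% of all windows. The AP-1 site TGANTCA was found in Mef2c start 3 and in 7.45% of all windows. Neither the Mef2d start nor Mef2c start 2 held a match to the 4 motifs, which were searched on both strands. The windows differ widely in base composition: G and C make up 61.4% of the Mef2a window, 35.4%, 46.8% and 49.6% of the Mef2c windows in order, and 72.9% of the Mef2d window, against a median of 52.5%. In the same table the genes span 145294 bp for Mef2a, 163063 bp for Mef2c and 30151 bp for Mef2d. The windows are longer, at 180001, 230001 and 60001 bp, so each also holds DNA outside its gene, and a peak is given here by position alone.

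The libraries differed in depth and in length of list. The sources used here give no read totals. The number of ChIP fragments at each summit and the local background were therefore recovered from the deposited fold and p. Relative to proliferation, the ChIP depth was 1.20 at 36 h and 1.10 at 72 h. The whole lists held 1.57 times as many peaks at 36 h and 1.70 times as many at 72 h as in proliferation, and covered 1.79 and 2.03 times as many bp. The local background of the median peak, relative to the genome background of its library, was 1.93 in proliferation, 1.06 at 36 h and 1.15 at 72 h. At the background that 95% of peaks did not exceed, a call needed 18 fragments in proliferation, 15 at 36 h and 14 at 72 h. At the genome background it needed 9, 9 and 8.

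The 3 loci followed different courses. Mef2a had peaks at every stage and gained most of its covered length by 36 h, Mef2c had no peak in proliferation and most of its peaks at 72 h alone, and Mef2d kept about the same number of peaks while the length they covered more than doubled, mostly in a few long peaks. Mef2a held 7 peaks in proliferation, 25 at 36 h and 26 at 72 h. Mef2c held 0, 5 and 24 peaks at the same stages. Mef2d held 10, 9 and 12. The increase in number at Mef2a was larger than that of the whole lists, with 3.57 times as many peaks at 36 h and 3.71 times as many at 72 h as in proliferation. At Mef2d the number was 0.9 of that in proliferation at 36 h and 1.20 times it at 72 h, below the whole lists on both occasions.

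**Figure D1:**
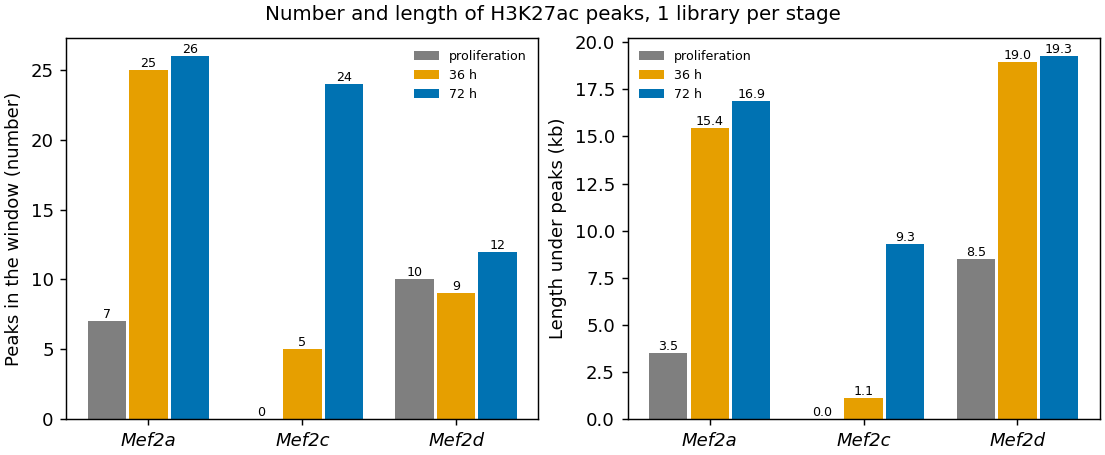
Number of H3K27ac peaks and length under peaks (kb) in the Mef2a, Mef2c and Mef2d windows by stage (proliferation, 36 h, 72 h), with 1 library per stage and hence no error bars. Mef2c starts at 0 peaks and reaches 24 at 72 h, Mef2a goes up mainly by 36 h, and Mef2d changes in covered length far more than in number.

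The length under peaks separated the loci in the same way. At Mef2a the peaks covered 3487 bp in proliferation, 15441 bp after 36 h and 16863 bp after 72 h, which is 1.94%, 8.58% and 9.37% of the window. At Mef2c they covered 0, 1100 and 9309 bp, or 0, 0.478% and 4.05% of the window. At Mef2d they covered 8514, 18956 and 19255 bp, or 14.2%, 31.6% and 32.1%. Mef2d was thus the most densely covered of the 3 at every stage, and Mef2c the least. Covered length at Mef2a was 4.43 times that in proliferation at 36 h and 4.84 times at 72 h, and at Mef2d 2.23 and 2.26 times. The whole 72 h list covered 1.14 times the length of the 36 h list, whereas in the Mef2c window the 72 h peaks covered 8.46 times the length of the 36 h peaks. The peaks called at a −log10 q of at least 5 numbered 5, 11 and 17 at Mef2a, 0, 2 and 15 at Mef2c, and 10, 6 and 6 at Mef2d, in order of stage. By these stronger calls Mef2d held fewer peaks at 36 h and 72 h than in proliferation, so the direction of its change in number depends on the threshold. Over the whole lists 64.8%, 68.3% and 61% of peaks reached this threshold in order of stage.

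Cutting the genome into tiles as long as each window gives a scale for these lengths. Among 8969 tiles of the Mef2a length that hold a peak at any stage, 68.11%, 88.38% and 88.35% were less covered than the Mef2a window, in order of stage. Among 19207 tiles of the Mef2d length, 97.4%, 98.8% and 98.7% were less covered than the Mef2d window. Mef2d therefore stood near the top at all stages. Among 7457 tiles of the Mef2c length, 0%, 25.7% and 69.2% were less covered than the Mef2c window. At 72 h Mef2c was thus above the middle of these peak-holding tiles but not extreme.

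**Figure D2:**
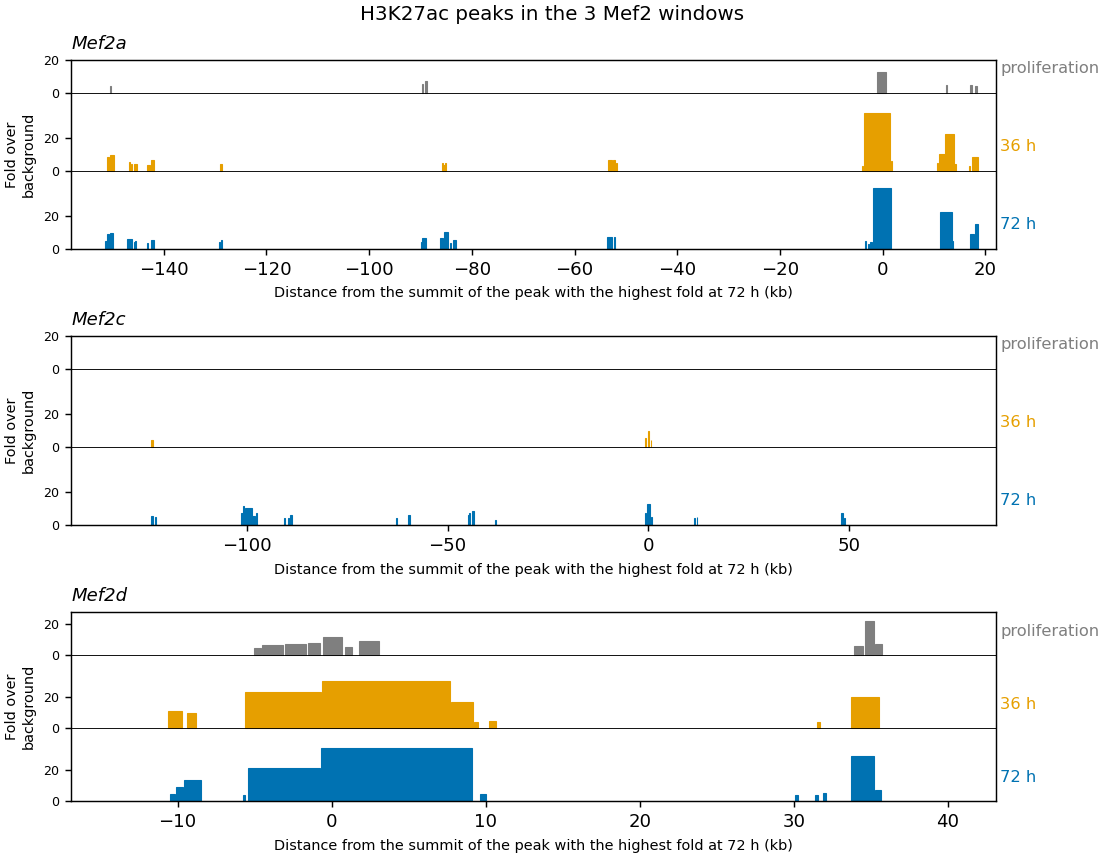
H3K27ac peaks of the 3 stages along the Mef2a, Mef2c and Mef2d windows, with 1 row per stage. The x axis gives the distance in kb from the summit of the window's peak with the highest fold at 72 h. Bar width is to scale and bar height is the fold. The proliferation row is empty at Mef2c, and at Mef2d the narrow proliferation peaks lie inside wider blocks at 36 h and 72 h.

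Merging overlapping peaks of the 3 lists gave 60 regions in the windows, 25 at Mef2a, 24 at Mef2c and 11 at Mef2d. None of the 60 was called in proliferation only, a class that made up 6.7% of the 112926 merged regions of the genome. In all, 52 of the 60 had no proliferation peak, as had 62.1% of all regions. Regions called at 36 h and 72 h but not in proliferation numbered 10 at Mef2a, 4 at Mef2c and 3 at Mef2d, 17 of 60 against 22.3% of all regions. Regions called at all 3 stages numbered 4, 0 and 3, 7 of 60 against 25.6%. Regions called at 36 h only numbered 5, 0 and 2, 7 of 60 against 15.9%. Regions called at 72 h only numbered 5, 20 and 3, 28 of 60 against 23.9%, and 20 of those 28 lay at Mef2c. The 1 remaining region, at Mef2a, was called in proliferation and at 72 h.

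At 36 h and 72 h Mef2a had its strongest acetylation near the high-coordinate end of its window, in 2 sites that were already called in proliferation. A site is a group of peaks of the 3 lists no more than 5 kb apart, and 6 sites made up the window. The leading site, chr7:74513888-74519746, had 68 fragments at its highest summit in proliferation, 113 at 36 h and 118 at 72 h. Scaled to the depth of proliferation this was 68 (95% Poisson interval 52.8 to 86.2), 94.6 (77.9 to 114) and 107 (89.0 to 129). The intervals of 72 h and proliferation do not overlap, whereas that of 36 h overlaps both. The deposited fold enrichment there was 12.8, 35.4 and 37.1, above that of 93.6%, 99.7% and 99.9% of the peaks of its own list. The local background at these summits, not scaled for depth, was 2.65, 1.25 and 1.12 in order of stage. The part of this background in the fold and in the width of calls was not tested. In the region of these summits, chr7:74514380-74519746, signal above background was 1.45 times the proliferation signal at 36 h and 1.65 times at 72 h. These ratios are higher than those of 79.3% and 77.9% of regions called at all 3 stages. The peaks of the site covered 1714, 5577 and 4660 bp, and the widest single peak was 1714, 5109 and 3551 bp, wider than 96.0%, 99.7% and 98.9% of its list.

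The next site, chr7:74528469-74536595, had its highest summit at another place later than in proliferation. It had 3, 6 and 4 peaks covering 1042, 4475 and 4048 bp in order of stage, and 22, 71 and 69 fragments at its highest summit. After scaling, the values were 22 (13.8 to 33.3), 59.4 (46.4 to 74.9) and 62.9 (48.9 to 79.5), with both later intervals above that of proliferation. These values are of different places in the site, since its highest summit lay at position 74535276 in proliferation, 74530345 at 36 h and 74530304 at 72 h. The region around the later summit, chr7:74529028-74531772, had 18 (10.7 to 28.4), 71 and 69 fragments in order of stage, and its proliferation peak was 187 bp wide. Its signal above background was 3.77 times the proliferation signal at 36 h and 3.99 times at 72 h. These ratios are higher than those of 99.4% and 98.9% of the 28908 regions called at all 3 stages, whose medians were 1.04 at 36 h and 1.18 at 72 h. No interval was worked out for the ratios, which rest on a low count in proliferation. The neighbouring region, chr7:74534843-74536595, had 22, 26 and 46 fragments and ratios of 1.08 at 36 h and 2.16 at 72 h, with later summits 770 and 887 bp from that of proliferation.

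**Figure D3:**
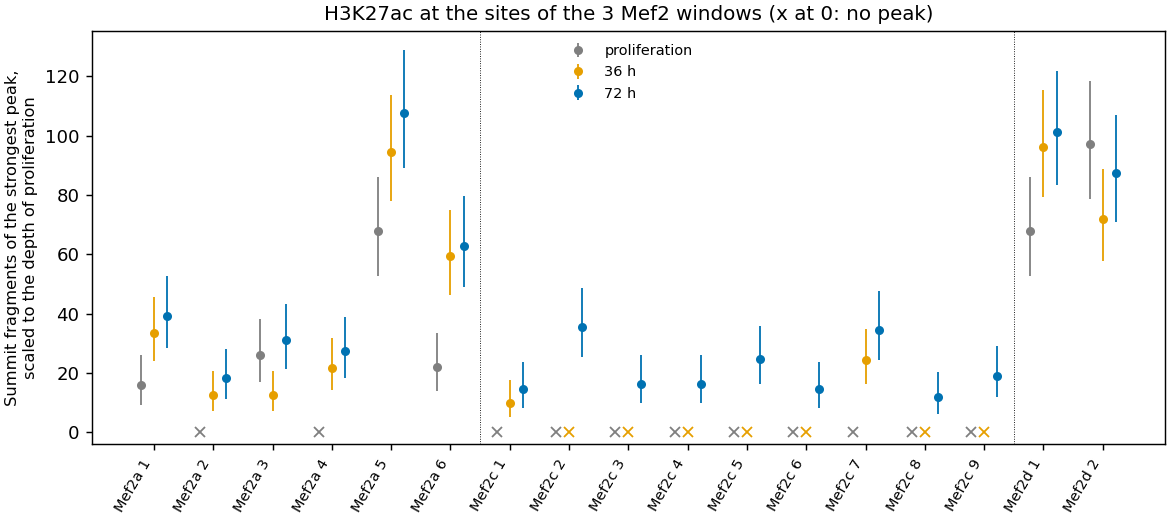
Fragments at the highest summit of each site in the Mef2a, Mef2c and Mef2d windows, scaled to the ChIP depth of proliferation, for proliferation, 36 h and 72 h, with 95% Poisson intervals that cover counting error only. The highest summit may lie at different places of a site by stage. The leading sites of Mef2a reach 107 and 62.9 at 72 h, those of Mef2c reach at most 35.5, and the 2 Mef2d sites lie between 68 and 101.

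Of the other 4 Mef2a sites, 2 had a proliferation peak and 2 had none, and all 4 were weaker than the 2 high-coordinate sites at 36 h and 72 h. At chr7:74366597-74376045 there were 1, 8 and 8 peaks in order of stage, covering 224, 3066 and 3431 bp. The highest summit there had 16 (9.15 to 26.0), 33.5 (23.9 to 45.6) and 39.2 (28.3 to 52.8) scaled fragments, with the 72 h interval above that of proliferation. The sites at chr7:74388738-74389406 and chr7:74464272-74466272 had no proliferation peak, and had 2 peaks each at 72 h, against 2 and 3 at 36 h. Their highest summits held 20 and 30 fragments at 72 h, against 15 and 26 at 36 h. Whether such an absence could be a missed call was read from the fragments expected in the library that lacks the peak, given its depth and general signal. The chance of a call was taken at the high background given above, where 18 fragments were needed in proliferation, 15 at 36 h and 14 at 72 h. The background of the place itself was not used, and the counts were taken as exact, without their own counting error. All 4 Mef2a peaks at 36 h and all 4 at 72 h for which a call in proliferation had a chance of 99% or more had a proliferation peak within 1 kb. The gained Mef2a peaks thus each fell short of a 99% chance at the high background. The highest expectation among them was 26.3 fragments, for the 72 h peak chr7:74432566-74433320. At the genome background, where a call in proliferation needed 9 fragments, the chance was not worked out.

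The site at chr7:74428118-74434789 held different peaks by stage. In proliferation its highest summit, at position 74428965, had 26 (17.0 to 38.1) fragments and a fold of 7.07, more than the 22 of the high-coordinate site above. At 36 h and 72 h its highest summits lay at 74432952 and 74432729, where no proliferation peak was called, with 12.6 (7.03 to 20.7) and 31.0 (21.4 to 43.3) scaled fragments. The proliferation peak at chr7:74428841-74429134, with 26 fragments, had no 36 h peak within 1 kb, the nearest being 3.0 kb away. At the depth and general signal of the 36 h library 32.2 fragments would be expected there. Such a loss was seen for 1 of 13 proliferation peaks of the 3 windows that were sure to 99% or more of a call at 36 h, against 5.62% of 31819 in the whole list. The same stretch was called at 72 h, with 20 fragments, 18.2 after scaling, and a summit 50 bp from that of proliferation, at 0.708 of the proliferation signal.

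Most of the length under proliferation peaks at Mef2a was also under later peaks. The 36 h peaks overlapped 77.8% of the bp under proliferation peaks and 5 of the 7 peaks. The 72 h peaks overlapped 98.5% of the bp and all 7 peaks. These overlaps were not worked out over the whole lists. At Mef2a 2 of the 7 proliferation peaks had no 36 h peak within 1 kb, against 7366 of 57101 in the whole list. For 72 h this was 0 of 7, against 4458 of 57101. Seen from the later lists the overlap was small, since 17.6% of the 36 h bp and 20.4% of the 72 h bp lay under a proliferation peak. The 2 later lists shared 12225 bp, 72.5% of the 72 h bp and 79.2% of the 36 h bp. The weakest called peaks give a limit to such overlaps: summit fragments at Mef2a were 16 to 68 with a median of 20 in proliferation, 11 to 113 with a median of 16 at 36 h, and 11 to 118 with a median of 20.5 at 72 h.

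Mef2c was without a proliferation peak over its whole window and far beyond it. The nearest proliferation peaks lay 1099 kb before and 532 kb after the window, at the ends of a peak-free stretch of 1.86 Mb, chr13:82501146-84361950. Of 57072 such gaps between proliferation peaks, 156 were at least as long. A window without a proliferation peak was not rare in itself, as 14.2% of the 7457 tiles of the same length that hold a peak at any stage had none. Of those 1056 tiles, 2.56% had at least as many bp under 72 h peaks as the 9309 bp of Mef2c, and their median was 2 peaks and 627 bp. The gap held 51 peaks at 72 h, 24 of them in the window, against 18 at 36 h, 5 of them in the window.

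At 36 h Mef2c had peaks in 2 sites, both of which were also called at 72 h. At the high background none of the 5 peaks there at 36 h had a chance of 99% of a call in proliferation, with 9.70 to 23.4 fragments expected. At such a background their absence in proliferation cannot be told from missed calls. A call at the genome background needed 9 fragments, and the local background of proliferation at these peaks is not known. The stronger was chr13:83742589-83744400, with 3 peaks covering 1488 bp at 72 h and 3 covering 783 bp at 36 h. Its highest summit had 38 fragments at 72 h, against 29 at 36 h. After scaling this was 34.6 (24.5 to 47.5) at 72 h and 24.3 (16.3 to 34.9) at 36 h, with overlapping intervals. Its fold enrichment was 12.5 at 72 h, above 86.2% of the peaks of that list, and 9.42 at 36 h, above 77.0%, the highest of the window at both stages. The weaker, chr13:83619789-83620976, had 16 fragments at 72 h and 12 at 36 h. At 72 h 94.2% of the 36 h bp were still under a peak, while only 11.1% of the 72 h bp had been under a peak at 36 h.

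The other 7 Mef2c sites were called at 72 h alone. The widest, chr13:83642173-83646220, had 6 peaks covering 3283 bp, with 39 fragments at its highest summit, 35.5 (25.3 to 48.6) after scaling, and a fold of 11.5. Next in fragments came chr13:83698662-83700060, with 3 peaks over 850 bp, 27 fragments, 24.6 (16.2 to 35.8) after scaling, and a fold of 8.27. The remaining 5 sites had 13 to 21 fragments and 271 to 903 bp each. Counted over single peaks, summit fragments at Mef2c were 11 to 39 with a median of 18 at 72 h, and 12 to 29 with a median of 12 at 36 h, lower than the leading peaks of Mef2a and Mef2d.

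For a few of these peaks the chance of a call at another stage was 99% or more, with their fragments taken as exact. In the 3 windows 17 peaks at 72 h were sure to 99% or more of a call at 36 h, given the depth and general signal there, and 3 of them had no 36 h peak within 1 kb, against 3.01% of 33585 such peaks in the whole list. All 3 lay at Mef2c. They were chr13:83642694-83643023, with 39 fragments and 37.3 expected at 36 h, chr13:83643197-83644823, with 38 and 36.4, and chr13:83699698-83700060, with 27 and 25.8. The nearest 36 h peak was 22.4 kb from the first of them and 42.7 kb from the last. For proliferation the same count was 4 of 11 peaks at 72 h, against 20.1% of 20150 in the whole list. Of these 4, Mef2c held 3, the first 2 above and chr13:83743310-83744072, with 38 fragments at 72 h and 29.4 expected in proliferation. At the high background the other 21 of the 24 Mef2c peaks at 72 h were too weak for their absence in proliferation to be told from a missed call 1 by 1.

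At the low-coordinate edge of the Mef2c window a peak lay just outside. The 72 h peak chr13:83598953-83599157, with a fold of 5.23, ended 0.843 kb before the window, and the 36 h peak chr13:83598942-83599142, with a fold of 6.64, ended 0.858 kb before it. The first peaks inside began 19.8 kb past the edge at both stages. On the other side the nearest peaks outside were 531 kb away. Widening the windows by 25 kb on each side moved no ratio between stages by more than 1.5 times.

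Mef2d was broadly acetylated already in proliferation, and its length under peaks grew later through a few long peaks. The median width of a Mef2d peak was 675, 909 and 381 bp in order of stage, so the typical peak at 72 h was the narrowest. The main site, chr3:87936278-87957581, had 7 peaks at each of the 3 stages, which covered 6935 bp in proliferation, 16933 bp after 36 h and 16927 bp after 72 h. Its widest peak measured 1380, 8268 and 9798 bp in order of stage, wider than 93.4%, 99.96% and 99.97% of the peaks of its list. The highest summit had 68 (52.8 to 86.2), 96.2 (79.4 to 116) and 101 (83.2 to 122) scaled fragments in order of stage, so the later values are higher but all 3 intervals overlap. The fold was 11.7, 31.0 and 34.7, above 91.3%, 99.4% and 99.8% of each list. The local background differed as well: in order of stage, the median at Mef2d was 2.25, 1.17 and 1.0 times the genome background, and its part in the fold and in the width of calls was not tested.

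Most of the added length lay in 1 region of that site. In chr3:87946210-87956077 the proliferation peaks covered 3016 bp, against 9726 bp at 36 h and 9798 bp at 72 h, with 68, 115 and 111 summit fragments. In chr3:87941116-87946202 the peaks covered 3919, 4971 and 4820 bp in order of stage, with 47, 82 and 96 summit fragments. The signal of the 2 regions above background was 1.48 and 1.63 times the proliferation signal at 36 h, higher than in 80.5% and 85.6% of regions called at all 3 stages. At 72 h it was 1.57 and 2.06 times, higher than in 74.4% and 88.5% of them. Summit values of both regions were thus higher in the later libraries, though the counting intervals of the first overlap across the stages. After scaling, those of the second overlap between proliferation and 36 h but not between proliferation and 72 h. In the second region the later summits lay 464 and 325 bp from that of proliferation. The gain in covered length was large in the first and small in the second.

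Towards both ends of the site Mef2d had peaks that were missing in proliferation. The 36 h peaks chr3:87937504-87938107, with 41 fragments and a fold of 9.87, and chr3:87954620-87956077, with 55 fragments and a fold of 17.0, had no proliferation peak within 1 kb. At the depth and signal of the proliferation library 33.1 and 44.5 fragments would be expected, and the nearest proliferation peaks were 3.75 and 4.66 kb away. These were 2 of the 9 peaks at 36 h in the 3 windows for which a call in proliferation had a chance of 99% or more, against 17.3% of 18640 in the whole list. At 72 h the first of them was called again at chr3:87937310-87938381, with 41 fragments against 31.7 expected in proliferation and a fold of 13.4, and this is the 1 Mef2d peak among the 4 peaks at 72 h given above. The second was overlapped by the 9798 bp peak of 72 h.

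The second Mef2d site had its highest summit value in proliferation. At chr3:87976990-87982584 there were 3, 2 and 5 peaks covering 1579, 2023 and 2328 bp in order of stage. The highest summit had 97 (78.7 to 118), 72.0 (57.6 to 88.9) and 87.4 (70.8 to 107) scaled fragments, with all intervals overlapping. It lay 13 bp at 36 h and 4 bp at 72 h from its place in proliferation. The fold was 22.1, 20.3 and 29.4, above 99.7%, 95.8% and 99.2% of each list, which made it the strongest peak of the 3 windows in proliferation. The signal above background of chr3:87980623-87982584 was 0.740 of the proliferation signal at 36 h and 0.913 at 72 h, lower than in most regions called at all 3 stages, of which 24.7% and 28.1% were lower still.

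**Figure D4:**
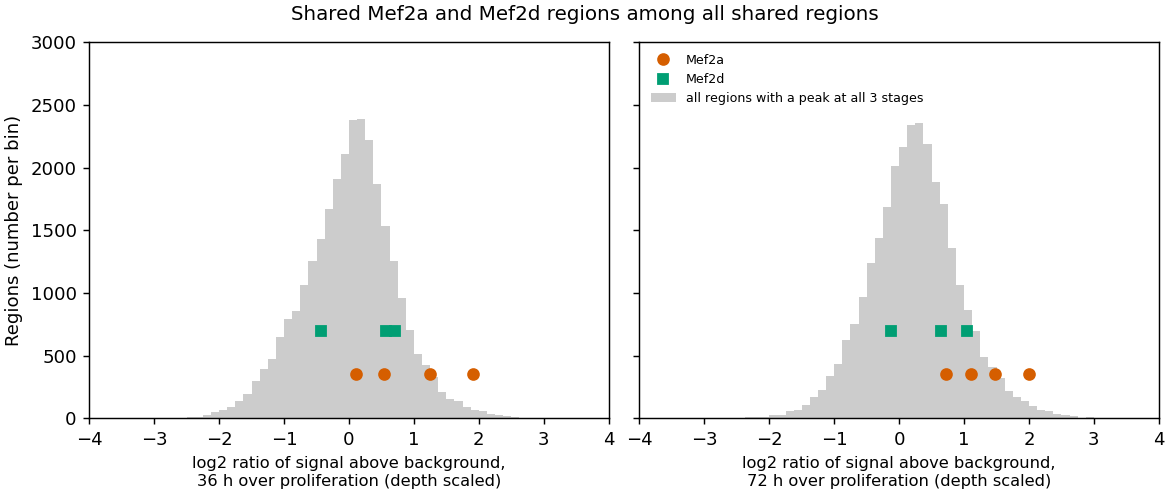
Signal above background relative to proliferation, at 36 h and at 72 h, for the Mef2a and Mef2d regions called at all 3 stages, beside the distribution over the 28908 such regions of the genome. The region at 3.77 and 3.99 belongs to Mef2a, and the Mef2d region at 0.740 and 0.913 is the 1 that stays under 1 at both stages.

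All 10 proliferation peaks at Mef2d were overlapped at 36 h and at 72 h. In the whole list 7366 of 57101 proliferation peaks had no 36 h peak within 1 kb, and 4458 had no 72 h peak within 1 kb. Overlap in bp or peaks, in either direction, was not worked out over the whole lists. Of the bp under proliferation peaks 98.0% were under a 36 h peak and 99% under a 72 h peak. In the other direction 44.0% of the 36 h bp and 43.8% of the 72 h bp lay under a proliferation peak. The 2 later lists shared 17488 bp, 90.8% of the 72 h bp and 92.3% of the 36 h bp, a closer match than at Mef2a or at Mef2c. Over the 3 windows all 14 proliferation peaks and all 14 peaks of 36 h sure to 99% or more of a call at 72 h had a 72 h peak within 1 kb. In the whole lists 3.51% of 36810 such proliferation peaks and 1.68% of 35815 such peaks of 36 h were missing at 72 h.

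Joining peaks across gaps of up to 12.5 kb, as is done to find long acetylated domains, placed Mef2d high in the genome at every stage. Its main cluster summed to 6.94 kb of peaks in proliferation, and to 16.9 kb of peaks at both later stages. By that length it ranked 692 of 17463 clusters, 443 of 21016 and 499 of 23013. The largest Mef2a cluster had 2.76, 10.1 and 8.71 kb under peaks and ranked 2871, 1048 and 1533 at the same stages. At 72 h the largest Mef2c cluster, chr13:83642173-83654895, had 4.19 kb and ranked 3748. The order of the 3 loci by this measure was Mef2d, Mef2a and Mef2c at 36 h and 72 h alike.

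The windows of Mef2a and Mef2d ended in peak-free DNA. Past the high-coordinate end of the Mef2a window the nearest peaks were 47.5, 19.2 and 19.1 kb away in order of stage, with folds of 7.86, 11.2 and 15, and the last peaks inside ended 3.65, 3.56 and 3.41 kb before the edge. Before the Mef2d window the nearest peaks were 42.8, 39.7 and 40.7 kb away, and after it 110 kb at each stage. An alternative added after the data were seen thinned the 36 h and 72 h peaks to the depth of proliferation and raised their local background to that of the median proliferation peak. It can drop whole weak peaks but not narrow one, so it bears on peak number and not on covered length. Each thinned list kept its own smallest −log10 p as the threshold, 2.99 at 36 h and 2.92 at 72 h, against 3.24 in proliferation. Mef2a then had 23 peaks at 36 h and 23 at 72 h, against 7 in proliferation. Mef2c then had 22 peaks at 72 h and 5 at 36 h. The number of Mef2d peaks was 9 at 36 h and 8 at 72 h in that setting, against 10 in proliferation, so its higher number at 72 h was not kept.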

How the data were processed

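H3K27ac peak lists of 3 C2C12 libraries were analysed. Files of the 3 input libraries were not used here. BWA, MACS2, deepTools and the mm9 build are named in the submitters' processing notes, with versions and settings not given in the sources used here. Per the narrowPeak column order, the deposited lists give each peak's position, a fold (ratio of ChIP to background pileup), a −log10 p, a −log10 q-value and a score, called separately per library by the authors. The deposited score was not used. The smallest deposited −log10 q was 1.32, 1.32 and 1.30 in order of stage, and the shortest peak was 147 bp.

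The members, windows and lists were chosen with earlier results of these data known. Summit fragments and local background were solved from the fold, (ChIP pileup + 1) / (background + 1), and the Poisson p, with 1 scale factor per library (0.673, 0.698 and 0.657). This returned the p of 100% of peaks within a relative tolerance of 0.0003, and was tested on simulated peaks, with 100% of 3000, 2999 and 3000 recovered. The simulated peaks were made with the same formula and scale factors, so they test the solving and not the formula, the scale factors or the depth. Depth was the genome background divided by the scale factor. Expected fragments were the summit fragments times the relative depth and the median signal ratio of regions called at all 3 stages. The chance of a call was taken from them at the background that 95% of the peaks of a library did not exceed. Regions join peaks overlapping by at least 1 bp. Regions named are, in each window, the 3 with most fragments at 72 h, the 2 with most in proliferation, those missing from a list despite a 99% chance of a call, and those at the edges. With 1 library per stage no test was made. Alternatives were a −log10 q or a fold of at least 5, lists equal in number, thinning, summits within the window, windows wider by 25 kb, a merge gap of 1 kb and an overlap of 50% of the shorter peak. Start-site sequences are from RefSeq (GRCm38.p6), and all 3 symbols matched. No mm9 gene annotation was used here, so peaks were not assigned to exons, introns or promoters. Python 3.11.15, NumPy 2.4.6, pandas 2.3.3, SciPy 1.17.1 and Matplotlib 3.10.9 were used.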

Additional observations from a re-analysis of the deposited data

How the results depend on the processing

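Over 17 results and 125 comparisons with an alternative, 109 moved by at most 1.5 times, 12 moved further and 4 changed direction, the last all for the number of Mef2d peaks at 72 h over proliferation. That ratio, 1.20 as deposited, was 0.6 at a −log10 q of at least 5 and with lists equal in number, 0.778 at a fold of at least 5, and 0.8 after thinning with the background raised. Among the 109 were results at 0 in every setting, namely the Mef2c peaks in proliferation and, at each locus, the regions called in proliferation only. Settings that only remove peaks could not have moved the Mef2c number, so the 109 overstate how far the results were tried. The number of Mef2a peaks over proliferation was 2.2 at 36 h at a −log10 q of at least 5, and with lists equal in number 1.57 at 36 h and 2.29 at 72 h. The number of Mef2c peaks at 72 h over 36 h was 7.5 under these 2 settings and at a fold of at least 5. Regions called at 36 h and 72 h but not in proliferation numbered 6 at Mef2a and 2 at Mef2c at a −log10 q of at least 5, and 5 and 2 both with lists equal in number and with regions merged across 1 kb. The cause was not tested. Ratios of covered length moved by less than 1.5 times in each setting tried, of which thinning can drop whole peaks but narrow none. No paired analysis was possible because each stage has 1 library. At the high background counting depth limits most single peaks. Of 62 peaks at 72 h in the windows, 11 had enough fragments for a near-certain call in proliferation there, with their counts taken as exact.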
